A study of Mus musculus with 4 samples.

Results

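Integrins are the receptors by which T cells hold on to other cells and to extracellular matrix, and 10 of their genes with roles in helper T cells are described here. The members were listed by name and not by a rule on their values, though earlier results of these data were known. Itgae, Itga4, Itga6, Itgal and Itgav encode alpha chains, and Itgb1, Itgb2, Itgb3, Itgb7 and Itgb8 encode beta chains. They are 10 of the 18194 mouse genes that have a probe set of their own on the array, and 27 of its 45101 probe sets name 1 of these genes and no other. Levels are the deposited values, read as log2, so a difference of 1 is a 2-fold change.

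The samples were naive CD4+ T cells (CD44-, CD62L+) of C57BL/6J mice that also carry OT2, a T cell receptor transgene. The cells were activated through CD3 and CD28 for 72 h in Th17 conditions, with IL-6 at 20 ng/ml, TGF-β at 2 ng/ml and antibody to IL-4. STAT3-deficient cells (CD4-Cre stat3 fl/fl) and STAT3 wild-type cells (stat3 fl/fl without Cre) also received antibody to IL-2 at 10 µg/ml. STAT5-deficient cells (CD4-Cre stat5 fl/fl) and STAT5 wild-type cells (stat5 fl/fl without Cre) received IL-2 at 100 IU/ml in its place. The Cre is driven by the Cd4 promoter, which is active from T cell development onward, and the number of animals behind each culture is not given in the labels. Each group was 1 array, so a difference comes with no replicate check and no p-value, and precision is limited by there being 4 arrays. The words higher and lower are used as calls where 2 arrays differ by 2-fold or more. Within each pair the IL-2 treatment was the same, but between the pairs the IL-2 treatment and the floxed allele cannot be told apart.

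An integrin is a pair of chains, and the pairing sets what it binds. The beta2 chain with alphaL forms LFA-1, which binds ICAM proteins on the antigen-presenting cell. The alpha4 chain pairs with beta1 to bind VCAM-1 on inflamed endothelium, or with beta7 to bind MAdCAM-1 on vessels of the gut. The alphaE chain pairs with beta7 to bind E-cadherin on epithelium and is known to be induced by TGF-β. Chains containing alphaV bind matrix proteins such as vitronectin, and alphaV with beta8 can release TGF-β from its latent complex. The alpha6 chain pairs with beta1 to bind laminin.

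The genes named in the sample titles were checked first. Stat3 was at 9.93 in STAT3-deficient cells and 12.87 in STAT3 wild-type cells, Stat5a at 5.91 in STAT5-deficient cells and 10.92 in STAT5 wild-type cells, and Stat5b at 6.09 in STAT5-deficient cells and 11.33 in STAT5 wild-type cells. Of the 4 Stat3 probe sets, 2 differed little without STAT3, by -0.22 and -0.41, and where they lie relative to the deleted part is not given. The first of these was at 6.25 in STAT5-deficient and 7.44 in STAT5 wild-type cells (-1.19). In that pair the other Stat3 probe sets differed by between 0.21 and 0.47. The genotype field of both deficient samples ends in the words wild type, against the titles used here. Array medians ran between 6.10 and 6.34. Of 8 markers of CD4 T cells, the 7 with a probe set of their own lay above 6.20, the median of all values, on all 4 arrays. Levels under 6.20 were taken as background, so the size of a difference is uncertain where either level is under it.

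The STAT3 result turns most on Itga4, so the promoter of that gene is shown, as RefSeq gives it for GRCm38.p6. It is the 250 bases before the annotated start, chr2:79255176-79255425 on the plus strand. Capitals mark, from left to right, a match to a T-box motif and a match to a RUNX motif, both read on the minus strand.

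Itga4 promoter: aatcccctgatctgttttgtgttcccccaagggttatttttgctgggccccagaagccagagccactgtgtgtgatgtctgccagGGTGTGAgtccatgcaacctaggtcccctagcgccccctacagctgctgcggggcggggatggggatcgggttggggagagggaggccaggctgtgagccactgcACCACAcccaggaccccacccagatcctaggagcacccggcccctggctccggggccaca

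The T-box match begins 165 bases and the RUNX match 60 bases before the start. Windows of 300 bases, 250 before and 50 after a start, were searched on both strands, and overlaps between motifs were allowed. The T-box letters TCACACC occur in 3.98% of all 32851 such windows and the RUNX letters TGTGGT in 16.8%. The GATA letters AGATAA occur in 11.2%, the ETS letters CCGGAA in 14.9%, the SMAD letters GTCTAGAC in 0.213% and the STAT letters TTCNNNGAA in 8.30%. A window was listed for 5 members, Itga4, Itgav, Itgb1, Itgb7 and Itgb8. Besides the pair of matches in Itga4, the only match among these windows was the ETS motif in Itgb1, beginning at base 3 counted from the start. The STAT letters are in none of those 5 windows. A match describes letters in a window and is no evidence of binding.

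Among the 9 members that passed the filter on low levels, Itga4 and Itgb3 were called higher without STAT3, no member was called in either direction without STAT5, and Itgae was called lower in STAT5 wild-type than in STAT3 wild-type cells. Itgb8 was under 6.20 on all 4 arrays and was not compared. The other chains, among them both chains of LFA-1, stayed within 2-fold in all 3 comparisons. Of the 12440 genes compared, 2.85% were higher and 7.23% lower without STAT3, 1.86% were higher and 1.74% lower without STAT5, and 2.35% were higher and 2.95% lower in STAT5 wild-type than in STAT3 wild-type cells. Of the calls without STAT3, 71.8% were lower as deposited, 52.6% after centring arrays on their medians and 53.8% with intensity-dependent centring. Between the wild types they made up 55.7% as deposited, 26.4% with arrays centred and 50.3% with intensity-dependent centring.

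**Figure D1:**
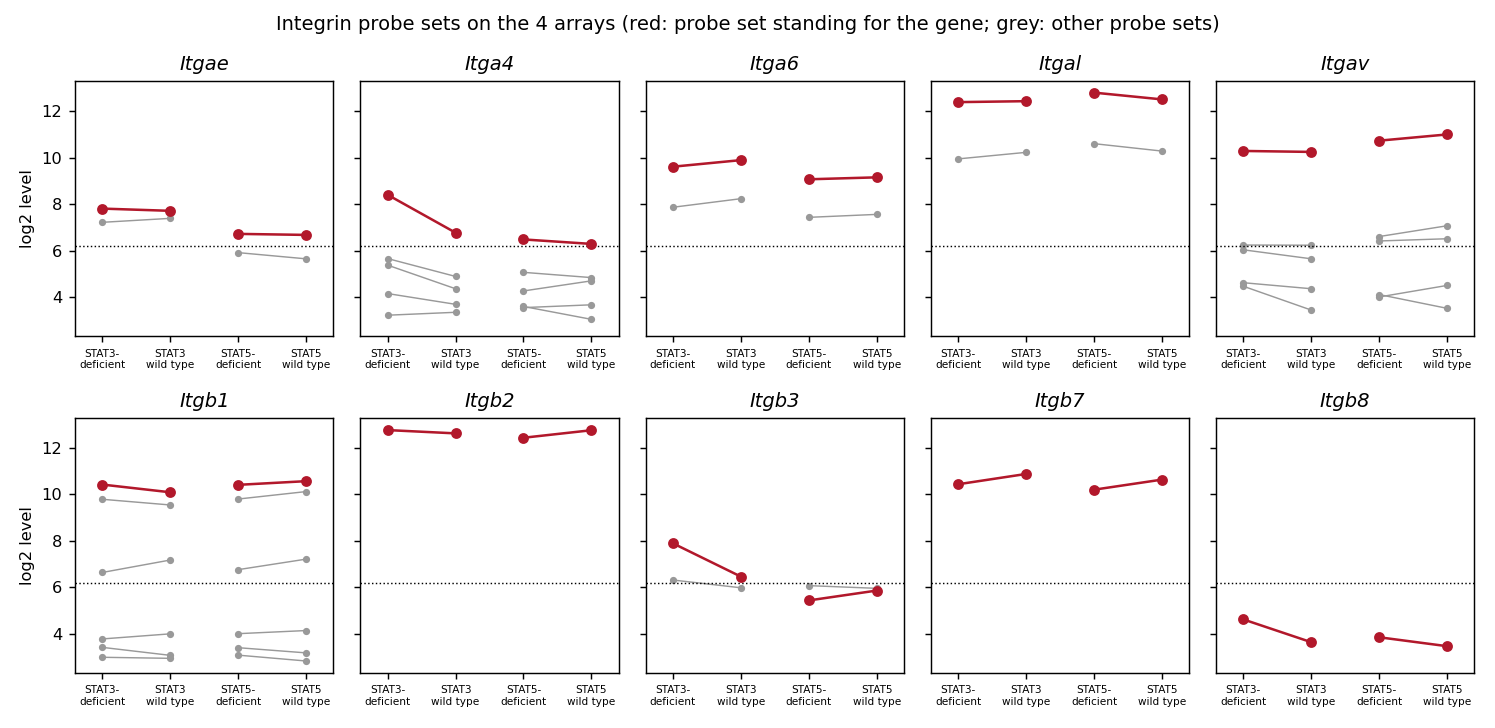
Log2 level (vertical axis) of every integrin probe set on the 4 arrays (horizontal axis), with lines joining the arrays of each pair. Red marks the probe set standing for the gene, grey the others, and the dotted line is the level of 6.20. Over the 4 arrays the red points of Itga4 and Itgb3 are highest on the STAT3-deficient array, at 8.40 and 7.89. Those of Itgae, Itgb2 and Itgb8 are also highest there.

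Itga4, the alpha4 chain of the receptors for VCAM-1 and MAdCAM-1, was the member with the largest difference without STAT3. Its level was 8.40 in STAT3-deficient cells and 6.77 in STAT3 wild-type cells, against 6.48 in STAT5-deficient cells and 6.28 in STAT5 wild-type cells. The STAT3-deficient array thus stood apart from the other 3, which lay within 0.48 of each other. The difference without STAT3 was 1.63, or 3.09-fold, and 1.37% of the compared genes differed by more in that direction. Without STAT5 the difference was 0.19. The gap between the effects of the deletions was 1.44 and was not tested. In it the deleted gene and the IL-2 treatment of the pair cannot be told apart.

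The call for Itga4 rests on 1 of its 5 probe sets, since the other 4 lay under 6.20 on all arrays. Without STAT3 those 4 differed by 1.02, 0.77, 0.46 and -0.13, all between background levels, so these differences carry no reading. The mean of the 5 probe sets differed by 0.75, which is under 2-fold. On the STAT3 wild-type and both STAT5 arrays the main probe set lay only just above 6.20, so the size of the fold change is uncertain.

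Itgb7, the partner of both alpha4 and alphaE, did not follow Itga4. Its level was 10.43 in STAT3-deficient and 10.87 in STAT3 wild-type cells, a difference of -0.44, and 10.19 in STAT5-deficient and 10.63 in STAT5 wild-type cells, a difference of -0.43. Both deficient arrays were therefore below their own controls by less than 2-fold, and 1 probe set carries the gene. Relative to the median of all compared genes, which was -0.20 without STAT3 and 0.06 without STAT5, these differences were -0.24 and -0.50.

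Itgae, the alphaE chain known as CD103, differed between the pairs and not within them. Its level was 7.80 in STAT3-deficient and 7.71 in STAT3 wild-type cells, a difference of 0.10. It was 6.72 in STAT5-deficient and 6.67 in STAT5 wild-type cells, a difference of 0.04. Both arrays from cultures with IL-2 neutralised were thus above both arrays from cultures given IL-2. Itga4, Itga6 and Itgb3 had the same order, and Itgal and Itgav the opposite order. How many of all compared genes have either order was not counted, so it is not read as a trait of these members.

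Between the controls, Itgae was lower in STAT5 wild-type than in STAT3 wild-type cells by a difference of -1.04, or 2.05-fold, and 97.3% of the compared genes had a larger value. Its second probe set had 5.64 in STAT5 wild-type and 7.38 in STAT3 wild-type cells, so it was also lower, but against a level under 6.20 that leaves the size (-1.74) uncertain. The call lies close to the 2-fold limit. With each array centred on its median the difference of the main probe set was -0.84, and with intensity-dependent centring -0.92.

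Itgal and Itgb2 encode the chains of LFA-1, and neither was called in any comparison. Itgal was at 12.38 in STAT3-deficient and 12.42 in STAT3 wild-type cells, and at 12.79 in STAT5-deficient and 12.50 in STAT5 wild-type cells. Its differences were -0.04 and 0.29, and the second probe set gave -0.28 and 0.32. Itgb2 was at 12.76 in STAT3-deficient and 12.62 in STAT3 wild-type cells, and at 12.43 in STAT5-deficient and 12.75 in STAT5 wild-type cells. Over the 4 arrays the levels of Itgal spanned 0.41 and those of Itgb2 0.33, the narrowest ranges of the 10 members.

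Itgb1, the common beta chain that pairs with alpha4, alpha6, alphaV and other alpha chains, was at 10.42 in STAT3-deficient and 10.08 in STAT3 wild-type cells, a difference of 0.33. It was at 10.40 in STAT5-deficient and 10.56 in STAT5 wild-type cells, a difference of -0.16. Of its 6 probe sets, 3 lay above 6.20 on at least 1 array, and without STAT3 these differed by 0.33, 0.24 and -0.53, so they did not share a direction. The SD between them was 0.48, against a median of 0.23 over the 5557 genes with several such probe sets.

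Itga6, the laminin-binding alpha6 chain, was at 9.60 in STAT3-deficient and 9.89 in STAT3 wild-type cells, and at 9.06 in STAT5-deficient and 9.15 in STAT5 wild-type cells. As for Itgae, both arrays from cultures given IL-2 lay below both arrays with IL-2 neutralised. The difference between STAT5 wild-type and STAT3 wild-type cells was -0.74, or 1.67-fold. Its second probe set differed by -0.67 in that comparison, and neither reached 2-fold.

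Itgav, the alphaV chain, had the opposite order. Its level was 10.28 in STAT3-deficient and 10.24 in STAT3 wild-type cells, and 10.72 in STAT5-deficient and 10.99 in STAT5 wild-type cells. STAT5 wild-type cells exceeded STAT3 wild-type cells by a difference of 0.75, or 1.68-fold, which is under 2-fold. Of the other probe sets that passed 6.20 on some array, 1 differed by 0.28 in that comparison. The other was above 6.20 in STAT5 wild-type cells (7.07) and under it in STAT3 wild-type cells (5.64), so the size of its difference (1.42) is uncertain. With 2 more probe sets under that level on all arrays, the SD between the 3 that were measured was 0.57.

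Itgb3, a beta chain that pairs with alphaV and, in platelets, with alphaIIb, was the second member called without STAT3. Its level was 7.89 in STAT3-deficient and 6.46 in STAT3 wild-type cells, against 5.43 in STAT5-deficient and 5.86 in STAT5 wild-type cells. The difference without STAT3 was 1.43, or 2.70-fold, and 1.66% of the compared genes differed by more in that direction. The STAT3 wild-type level lay only just above 6.20, so the size of the fold change is uncertain. Both STAT5 arrays lay under 6.20, so their difference of -0.43 carries no reading.

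The second Itgb3 probe set was at 6.31 in STAT3-deficient and 5.98 in STAT3 wild-type cells, a difference of 0.33. It passed 6.20 only on the STAT3-deficient array, so that size is uncertain. On the STAT5 arrays it was at 6.07 in STAT5-deficient and 5.95 in STAT5 wild-type cells, a difference of 0.12, also under 6.20 and of the other sign. The mean of both probe sets differed by 0.88, which is under 2-fold. The SD between the probe sets was 0.78, the widest of the members in that comparison.

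Markers of cells that carry Itgb3 outside the T cell lineage were read on the same arrays. Of 5 platelet and megakaryocyte markers, 3 were above 6.20 on all 4 arrays, and their summed linear level was 479 in STAT3-deficient and 539 in STAT3 wild-type cells, with 510 in STAT5-deficient and 539 in STAT5 wild-type cells. Pf4 and Ppbp, which define platelets, were under 6.20 on both STAT3 arrays. Pf4 was at 5.02 in STAT5-deficient and 6.32 in STAT5 wild-type cells, the 1 array where it passed 6.20. Itga2b, the alphaIIb chain, was at 7.87 in STAT3-deficient and 7.95 in STAT3 wild-type cells. Of 4 mast cell and basophil markers, Cpa3, Mcpt8 and Ms4a2 were under 6.20 on all arrays. The remaining 1, the receptor tyrosine kinase gene Kit, was at 7.42 in STAT3-deficient and 5.67 in STAT3 wild-type cells. Their summed level was 259 in STAT3-deficient and 146 in STAT3 wild-type cells, with 122 in STAT5-deficient and 112 in STAT5 wild-type cells. Kit alone carries the difference in that sum, since the other 3 markers came to 87.1 in STAT3-deficient and 94.8 in STAT3 wild-type cells. The part of these cells in the Itgb3 result was not tested. In such bulk samples fewer cells of a type and less RNA per cell cannot be told apart.

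Itgb8, the beta chain that with alphaV can activate TGF-β, was at 4.62 in STAT3-deficient and 3.64 in STAT3 wild-type cells, and at 3.85 in STAT5-deficient and 3.46 in STAT5 wild-type cells. The difference without STAT3 was 0.98, but all of these levels were under 6.20. It is given for completeness and was not counted.

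**Figure D2:**
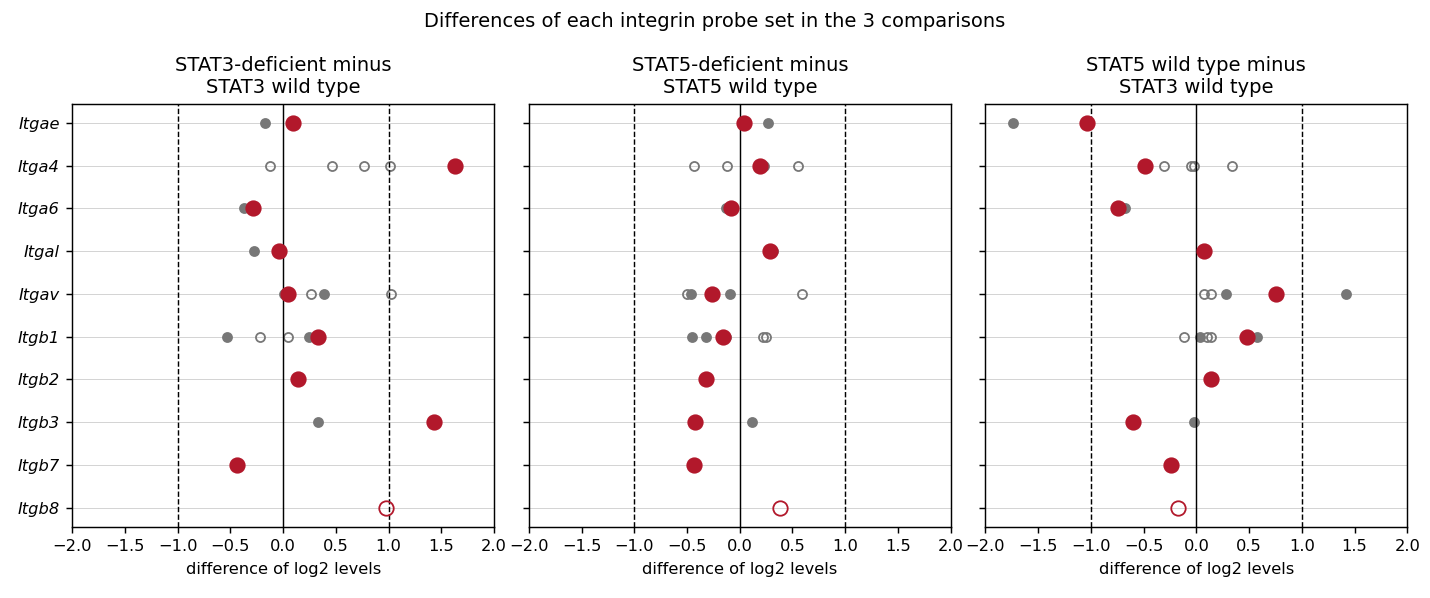
Difference of log2 levels (horizontal axis) for each integrin probe set in the 3 comparisons, with 1 row per gene. Red marks the probe set standing for the gene, filled points lie above 6.20 on at least 1 array, and dashed lines mark 2-fold. Without STAT3 only Itga4 (1.63) and Itgb3 (1.43) have a filled point past 2-fold, and between the wild types the filled points past 2-fold are those of Itgae (-1.04 and -1.74) and 1 probe set of Itgav (1.42), of which -1.74 and 1.42 have 1 side under 6.20.

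As a group, the 9 members compared had a median difference of 0.10 without STAT3, between -0.44 and 1.63, beside a median of -0.20 for all genes. Without STAT5 their median was -0.16, between -0.43 and 0.29, beside 0.06 for all genes. Between STAT5 wild-type and STAT3 wild-type cells it was -0.24, between -1.04 and 0.75, beside 0.06. The last comparison shares an array with each of the other 2. Of all compared genes, 30.7% lay above 0 without STAT3 and 59.4% without STAT5, as deposited. Without STAT3 6 members lay above 0 and 3 below, and without STAT5 3 lay above and 6 below. After centring arrays on their medians these counts were 7 and 2 without STAT3 and 2 and 7 without STAT5. The sign of the smallest differences thus depends on the scaling. The median of all compared genes was then 0.05 without STAT3 and -9e-05 without STAT5. The shares of all genes above 0 were not counted after centring, and those given as deposited do not apply to the centred counts. With 9 genes and 1 array per group, these signs are a description.

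The 2 deletions share no array, and each member's effects were set side by side. The pairs also differ in IL-2 added or neutralised, which cannot be told apart from the deleted gene in these gaps. The gap was 1.44 for Itga4. For Itgb3 it was 1.86, but its STAT5 side is taken between levels under 6.20, and with probe sets averaged the gap was 1.04, so the order of these genes is not given. For the other members compared the gap lay between -0.33 for Itgal and 0.49 for Itgb1. None of these gaps was tested.

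**Figure D3:**
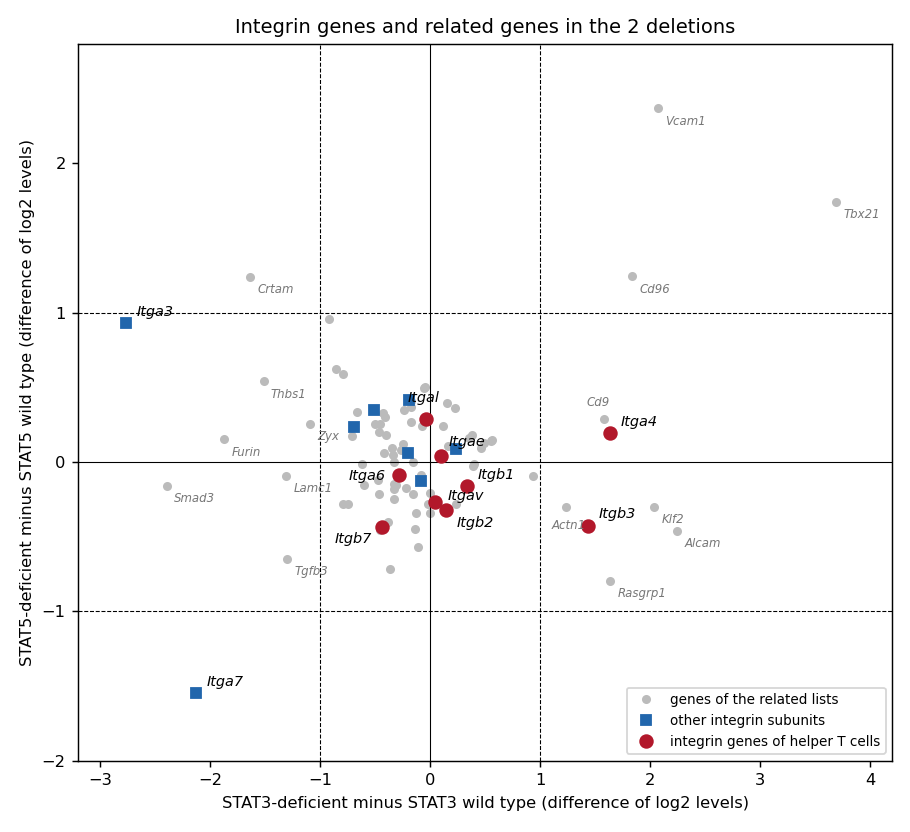
Difference of log2 levels without STAT3 (horizontal axis) against that without STAT5 (vertical axis), 1 point per gene above the 6.20 level. Red circles are the integrin genes of helper T cells, blue squares other integrin subunits and grey points genes of the related lists, with dashed lines at 2-fold. Itga4 and Itgb3 lie to the right at 1.63 and 1.43, and Itga3 and Itga7 to the left at -2.77 and -2.13.

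The other integrin subunits were read in the same way, and 8 of the 14 with a probe set of their own passed the filter. Without STAT3, 2 were called lower and none higher (median -0.36), and without STAT5, 1 was called lower and none higher (median 0.16). The lower genes encode alpha3 and alpha7, chains that pair with beta1 as laminin receptors. Itga3 was at 7.81 in STAT3-deficient and 10.58 in STAT3 wild-type cells, a difference of -2.77, and its 3 probe sets differed by between -2.77 and -1.62. Without STAT5 it was at 10.91, against 9.98 in STAT5 wild-type cells, a difference of 0.93.

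Itga7 was lower in both deletions, the only gene of that list called without STAT5. It was at 7.38 in STAT3-deficient and 9.51 in STAT3 wild-type cells (-2.13), and at 6.49 in STAT5-deficient and 8.04 in STAT5 wild-type cells (-1.54). STAT5 wild-type cells were also below STAT3 wild-type cells, by a difference of -1.47, and 1 probe set carries the gene. Itgam and Itgax, the beta2 partners of myeloid cells, were under 6.20 on all 4 arrays, and were named after their values were seen. Of 6 myeloid markers 3 lay above 6.20 on all 4 arrays and 2 on none, and their summed level ran from 454 to 529.

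Of the integrin ligands, 13 of 22 genes passed the filter, with 1 higher and 2 lower without STAT3 (median -0.33) and 1 higher and 0 lower without STAT5 (median 0.13). After centring arrays, Jam3, named after its values were seen, also passed 2-fold without STAT3 (1.18). Vcam1, the ligand of alpha4 with beta1, was the higher gene in both. It was at 8.32 in STAT3-deficient and 6.25 in STAT3 wild-type cells (2.07), and at 7.83 in STAT5-deficient and 5.46 in STAT5 wild-type cells (2.37, with the wild-type level under 6.20). Its 3 probe sets were all higher in both deletions, by between 0.58 and 4.17 without STAT3 and between 0.74 and 3.11 without STAT5. Lamc1, a laminin chain, was at 7.30 in STAT3-deficient and 8.61 in STAT3 wild-type cells (-1.31), while its second probe set differed by -0.57, under 2-fold. Thbs1, the matrix protein thrombospondin, was at 5.27 in STAT3-deficient and 6.78 in STAT3 wild-type cells. It passed 6.20 only on the STAT3 wild-type array, so its difference (-1.52) is uncertain in size, and it is counted through that array alone.

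Madcam1, the ligand of alpha4 with beta7, was within 2-fold in both deletions. It differed by -2.24 between the controls, at 5.39 in STAT5 wild-type and 7.63 in STAT3 wild-type cells, a size that is uncertain because the first level is under 6.20. The gene of the alphaE ligand, Cdh1, was under 6.20 on all 4 arrays, at 3.47 in STAT3-deficient and 3.30 in STAT3 wild-type cells. Madcam1 and Cdh1 were named after their values were seen.

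Genes that switch integrins on from inside the cell or tie them to actin were read next. Of 28 measured, 2 were higher and 1 lower without STAT3 (median -0.30), and 0 were called without STAT5 (median 0.09). Over all compared genes, 10.1% were called without STAT3 and 3.60% without STAT5. Rasgrp1, an exchange factor for Ras proteins, was at 9.76 in STAT3-deficient and 8.12 in STAT3 wild-type cells (1.63), but its 4 probe sets ranged from 0.37 to 1.63. Actn1, the actin crosslinker alpha-actinin, was at 11.11 in STAT3-deficient and 9.88 in STAT3 wild-type cells (1.24), and its 3 probe sets all passed 2-fold. Zyx, the focal adhesion protein zyxin, was at 10.69 in STAT3-deficient and 11.79 in STAT3 wild-type cells (-1.10), a difference that was -0.85 after centring arrays on their medians. Its second probe set differed by -0.53. The talin gene Tln1, whose product binds the beta tail, differed by -0.46 without STAT3 and 0.26 without STAT5. The kindlin-3 gene Fermt3, whose product is also needed to activate integrins of blood cells, differed by -0.62 and -0.02. Tln1 and Fermt3 were named after their values were seen.

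Among 6 measured genes for TGF-β and the handling of its latent form, 2 were lower without STAT3 and 0 were called without STAT5 (medians -0.46 and 0.15). Furin, the protease that cleaves the TGF-β precursor, was at 10.65 in STAT3-deficient and 12.53 in STAT3 wild-type cells (-1.88). Tgfb3 was at 6.84 in STAT3-deficient and 8.14 in STAT3 wild-type cells (-1.30). In the list of 10 measured tetraspanins and membrane partners, 1 was higher without STAT3 and 0 were called without STAT5 (medians -0.08 and -0.21). That gene, Cd9, whose product associates with beta1 integrins in the membrane, was at 10.73 in STAT3-deficient and 9.15 in STAT3 wild-type cells (1.58).

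**Figure D4:**
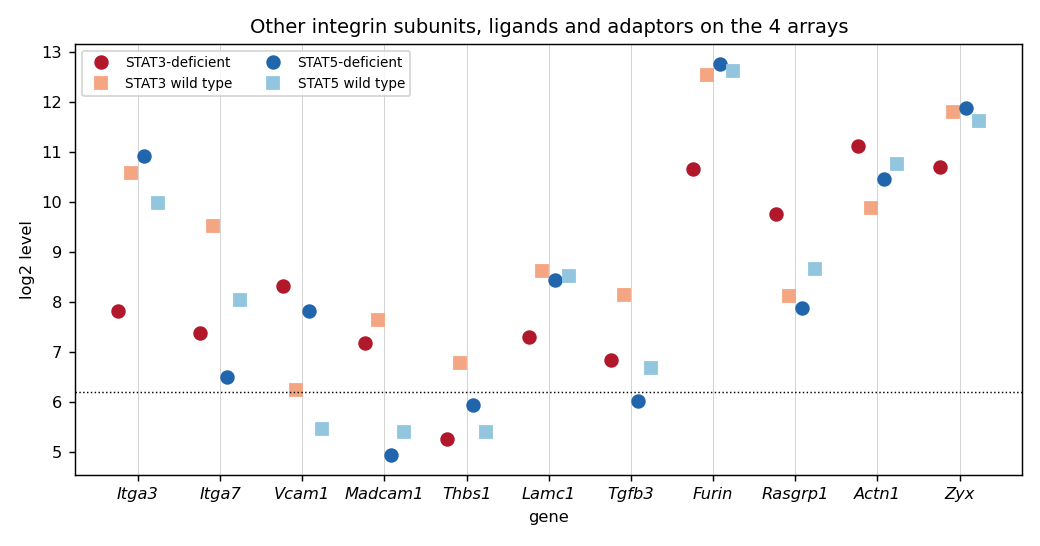
Log2 level (vertical axis) of named integrin subunits, ligands, TGF-β genes and adaptors (horizontal axis) on the 4 arrays, to be compared within a gene only. Circles are deficient and squares wild-type cells, red STAT3 and blue STAT5, and the dotted line is the level of 6.20. Itga3 and Furin stand apart on the STAT3-deficient array, at 7.81 and 10.65.

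Of 8 measured adhesion receptors of other families, 2 were higher and 1 lower without STAT3, and 2 were higher and 0 lower without STAT5 (medians -0.25 and 0.01). Alcam, a receptor that binds CD6, was at 8.65 in STAT3-deficient and 6.41 in STAT3 wild-type cells (2.24), and its 4 probe sets above 6.20 differed by between 1.86 and 2.24. Cd96, which binds the poliovirus receptor CD155, was higher in both deletions, by 1.83 and 1.24. Crtam, which binds nectin-like proteins, was at 4.94 in STAT3-deficient and 6.59 in STAT3 wild-type cells, and at 6.73 in STAT5-deficient and 5.49 in STAT5 wild-type cells. Its calls (-1.64 and 1.24) each have 1 side under 6.20 and are uncertain in size.

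Of 11 transcription factor genes known to regulate integrin genes, 2 were higher and 1 lower without STAT3 and 1 was higher without STAT5 (medians -0.05 and 0.12). Tbx21, which encodes the T-box factor T-bet, was at 8.94 in STAT3-deficient and 5.25 in STAT3 wild-type cells (3.69), and at 7.87 in STAT5-deficient and 6.13 in STAT5 wild-type cells (1.74), with both wild-type levels under 6.20. Klf2, a factor of naive and recirculating T cells, was at 9.65 in STAT3-deficient and 7.61 in STAT3 wild-type cells (2.03). Smad3, a factor that carries TGF-β signals, was at 7.91 in STAT3-deficient and 10.31 in STAT3 wild-type cells (-2.40). The part of Tbx21, Klf2 or Smad3 in the level of any integrin gene was not tested. Runx3, another factor of the list, differed by -0.42 without STAT3 and 0.06 without STAT5, and was named after its values were seen.

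The genes whose profiles over the 4 arrays lay nearest to those of the 3 called members were found by the root mean square distance between levels centred on their own mean. For Itga4 these were Nova2 (0.09), Trim14 (0.09) and Tg (0.11), with 17 genes within 0.2. For Itgb3 they were Fam178b (0.05), Dapk2 (0.09) and Vav3 (0.13), with 8 genes within 0.2. For Itgae they were St6gal1 (0.05), Pink1 (0.07) and Grb7 (0.08), with 53 genes within 0.2. Nova2 and Vav3 lay above the background level only on the STAT3-deficient array. Fam178b, Dapk2 and Grb7 lay under it on both STAT5 arrays, as did Itgb3 itself. For these neighbours the likeness rests in part on background levels. Trim14, Tg, St6gal1 and Pink1 lay above that level on all arrays. With 4 arrays such likeness is a description.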

How the data were processed

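The 4 samples of total RNA were each measured on 1 Affymetrix Mouse Genome array. Per the submitters' processing notes, Affymetrix Power Tools was used; no version or algorithm is stated in those notes. The deposited values were read as log2 expression because their range is 2.48 to 15.09; another log base would change every fold change. No genome build is named for the array data.

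Groups follow the sample titles. Genes were named by the platform annotation, and the 10 member symbols matched RefSeq through their Entrez identifiers. Where several probe sets name a gene alone, the one whose mean over all arrays is highest stands for it, and a gene was compared where its highest value exceeded 6.20 (percentile 50 of all values). Differences of log2 values were computed across all genes with pandas 2.3.3 and checked on simulated data. The 2-fold limit is not a test. The members and lists were chosen with earlier results of these data known. Named from each list were up to 4 genes with the largest differences past 2-fold in either deletion. Others are marked in the text, except the platelet, mast cell and basophil markers named beside Itgb3. Levels of different genes were not compared. Alternatives were the mean of probe sets, leaving out probe sets matching several transcripts, other filters (none, or percentile 75, a level of 8.29), array median and loess centring (span 0.4, statsmodels 0.14.6), and limits of 1.5-fold and 3-fold.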

Additional observations from a re-analysis of the deposited data

Results flagged for a closer look

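Itgb3 is given here because its effects in the 2 deletions had opposite signs and 1 of them passed 2-fold: 1.43 without STAT3 and -0.43 without STAT5, a gap of 1.86 on the log2 scale. The difference between the effects was not tested, since each group was 1 array, and both STAT5 arrays lay under the level of 6.20. The deleted gene and the IL-2 treatment of its pair cannot be told apart in this gap. The second probe set differed by 0.33 and 0.12, with the same sign in both deletions, and with probe sets averaged the gap was 1.04.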

How the results depend on the processing

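No paired analysis was possible because each group was 1 array with no replicate number, and no replicate could be left out. Of 180 differences of single members under the alternatives other than filters, 168 kept their side of the limit, 6 no longer passed it and 6 newly passed it. The 1.5-fold and 3-fold alternatives changed only the limit and not the values, and Itgb8, which was not compared, was included. The count of 168 is therefore no measure of how firm the calls are. No called difference changed sign under any of these alternatives. The member count without STAT3, 2 as reported, was 0 with probe sets averaged, 1 with the stricter filter and 1 at 3-fold. The count between wild types, 1 as reported, was 0 with the stricter filter, either centring or the 3-fold limit, and 4 at 1.5-fold, where Itga6, Itgb3 and Itgav joined Itgae. Without STAT5 no member was called under any of these alternatives. The gap between the deletions' effects for Itga4 was 0.67 with probe sets averaged and, at 1.44, was under 3-fold. For Itgb3, 1.86 as reported, it was 1.04 with probe sets averaged. For Itgb8, under the background level, it was 0.60, past 1.5-fold, and 1.56 with intensity-dependent centring. Over all genes, calls without STAT3 numbered 1254 as reported, 774 with the stricter filter, 3093 at 1.5-fold and 522 at 3-fold. Without STAT5 they numbered 448, 254, 1444 and 143, and 679 with no filter. Between wild types they numbered 659, 356, 2584 and 177. Fewer genes are compared under the stricter filter and more with none, and at 1.5-fold and 3-fold only the limit differs. The cause of the remaining changes was not tested. Signal over background is known only through the 6.20 level.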
